A study of Mus musculus with 4 samples.

Results

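The secreted Wnt ligands, their Frizzled and LRP receptors, the R-spondins and the secreted antagonists of the Sfrp and Dickkopf families were followed in colon RNA of Pla2g3+/+ and Pla2g3-/- mice that received vehicle or AOM (azoxymethane, which causes tumors in the rodent colon). Members were taken by gene symbol alone (Wnt, Fzd, Sfrp, Dkk and Rspo symbols with their numbers, Dkkl1, Lrp5 and Lrp6), and each gene was represented by the probe with the highest mean log2 signal. The array carried 52 probes for 44 such genes, out of 22371 named genes. Of the 44 genes, 35 had a signal well above background on at least 1 of the 4 arrays by the test of the scanner software, and 28 had one on all 4. The other 9, Dkk1, Dkk4, Rspo2, Rspo4, Wnt2, Wnt3, Wnt3a, Wnt8a and Wnt9b, were not well above background on any array and received no fold change.

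There were 4 groups with 1 array each. All mice were 42 weeks old males of a B6.129 background at backcross generation 3, and each array held colon RNA pooled from 3 to 5 of them. The AOM groups received 6 weekly injections of 10 mg/kg and were killed 28 weeks after the last one, and the vehicle groups received saline. The labels call the AOM tissue colorectal cancer, whereas the study describes whole descending colon, so the share of tumor in a pool is not known. The design asks how AOM changes the colon in each genotype and how the genotypes differ under each treatment. Within each question the pairs of arrays share no array, but every comparison shares an array with both comparisons of the other question.

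Wnt proteins are lipid-modified short-range signals that bind a Frizzled receptor together with Lrp5 or Lrp6, which stabilizes β-catenin and lets it act with Tcf and Lef factors in the nucleus. R-spondins bind Lgr receptors and remove the ubiquitin ligases Rnf43 and Znrf3, which otherwise clear Frizzled from the cell surface. Sfrps bind Wnts outside the cell, and Dkk1, Dkk2 and Dkk4 bind Lrp5 and Lrp6. In the colon, this pathway maintains stem cells at the crypt base, cells of the underlying stroma supply much of the Wnt and R-spondin, and most colon tumors have the pathway switched on.

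Values below are the spot intensity scaled so that the 75th percentile of each array is 100, called normalised signal. They are given in the order Pla2g3+/+ with vehicle, Pla2g3-/- with vehicle, Pla2g3+/+ after AOM and Pla2g3-/- after AOM. Levels of different genes are not compared, since each probe has its own brightness. With no replicate arrays, a single comparison has no test and no p-value, and a gene is called higher or lower past 2-fold. Between 305 and 316 probes printed in replicate and well above background gave a technical error within each array. The median SD of log2 signal was 0.053 to 0.060 for probes at a normalised signal of 10 or more and 0.13 to 0.17 for dimmer ones, and this leaves out all variation between mice and hybridizations. Each array has a detection floor, its dimmest signal that still passed the background test, which ranged from 1.26 to 2.28. Where only 1 array of a pair detected a gene, the other was given this floor, or the measured signal where that was higher, and the fold is then written as "at least".

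The genotype labels were set beside the targeted gene. The brightest of 3 Pla2g3 probes, on chromosome 11 of mm9 from 3394109 to 3394168, had signals of 53.1, 65.6, 23.2 and 140. The array labelled Pla2g3-/- exceeded the other by 1.23-fold for the vehicle pair and by 6.01-fold for the AOM pair. The second probe gave 1.06-fold and 6.66-fold in the same direction, and the third at least 2.31-fold with vehicle and 2.76-fold after AOM. Which exons were deleted is not given in the sources used here, so a probe may lie outside the deleted part, and these arrays do not show whether the labels match the RNA. The genotypes below are those of the labels, and every direction between genotypes rests on them.

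The arrays also differed in cell type markers. The array labelled Pla2g3+/+ after AOM stood apart in smooth muscle genes. The summed signal of 10 of them was 52020, 54583, 3167 and 50084, and of these only Lmod1 was below background there. Desmin (Des) had signals of 792, 717, 6.32 and 647, and smooth muscle myosin heavy chain (Myh11) of 592, 545, 22.9 and 2007. The summed signal of 8 neuron and glia genes was 296, 311, 79.2 and 185, and that of 10 fibroblast genes was 4135, 4648, 12423 and 8913. Epithelial keratins Krt8, Krt18 and Krt19 were well above background on every array, and 10 epithelial markers summed to 94989, 95609, 50989 and 81827. After AOM in Pla2g3+/+, 4 of these 10 were lower past 2-fold and 0 higher (median log2 ratio −0.61), beside 22.4% and 15.1% of all genes. Among the lower ones, Krt20 had signals of 9321, 10689, 2248 and 8231. On the array labelled Pla2g3-/- with vehicle, 8 genes of the exocrine pancreas summed to 985, against 37.7, 16.8 and 18.6 on the others. In bulk RNA, fewer cells of a type and less RNA per cell cannot be told apart, and with 1 array per group no result can be given without an array that stands apart.

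Promoters are shown, for Wnt6 and Dkk2, which were higher after AOM on the array labelled Pla2g3+/+, and for Rspo1 and Sfrp5, which were lower there. Each is the 250 bases before the RefSeq start site, 5′ to 3′, with CpG dinucleotides in capitals.
Wnt6 promoter, GRCm38.p6 chr1:74771642-74771891, plus strand: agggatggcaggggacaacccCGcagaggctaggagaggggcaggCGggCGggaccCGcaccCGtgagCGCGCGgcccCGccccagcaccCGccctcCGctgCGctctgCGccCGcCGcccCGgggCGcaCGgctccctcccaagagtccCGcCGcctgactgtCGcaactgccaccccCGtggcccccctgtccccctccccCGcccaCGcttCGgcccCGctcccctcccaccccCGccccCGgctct
Dkk2 promoter, GRCm38.p6 chr3:132085042-132085291, plus strand: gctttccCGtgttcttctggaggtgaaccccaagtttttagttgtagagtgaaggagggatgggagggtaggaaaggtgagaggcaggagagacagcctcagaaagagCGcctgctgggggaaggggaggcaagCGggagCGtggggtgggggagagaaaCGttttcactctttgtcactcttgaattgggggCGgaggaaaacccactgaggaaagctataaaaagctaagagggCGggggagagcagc
Rspo1 promoter, GRCm38.p6 chr4:124986180-124986429, plus strand: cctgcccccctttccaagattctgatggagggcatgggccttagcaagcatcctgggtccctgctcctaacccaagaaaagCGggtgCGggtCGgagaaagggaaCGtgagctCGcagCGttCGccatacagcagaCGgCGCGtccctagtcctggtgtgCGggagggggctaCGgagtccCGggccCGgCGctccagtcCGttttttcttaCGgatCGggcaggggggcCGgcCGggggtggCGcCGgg
Sfrp5 promoter, GRCm38.p6 chr19:42202253-42202502, minus strand: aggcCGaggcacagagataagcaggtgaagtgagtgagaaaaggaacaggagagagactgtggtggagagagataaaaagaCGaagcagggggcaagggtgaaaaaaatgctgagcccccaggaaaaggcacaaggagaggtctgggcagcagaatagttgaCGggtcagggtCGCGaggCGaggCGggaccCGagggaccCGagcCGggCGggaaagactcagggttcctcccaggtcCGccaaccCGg

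The Wnt6 promoter held 28 CpG dinucleotides and that of Rspo1 held 22, more than 92.4% and 85.2% of 32851 RefSeq promoters, which had a median of 6. Sfrp5 had 13 and Dkk2 had 7. RefSeq promoters were found for 28 of the 44 genes, 31 promoters in all. A search of the window from 250 bases before to 50 bases after the start for CTTTGAT or CTTTGAA, the core letters bound by Tcf and Lef factors, on both strands, gave a match in 3 of these 31 (Dkk1, Wnt11 and Wnt5b), or 9.68%. Over all promoters of the same length the share was 8.65%. None of the 4 promoters printed above held either motif. Wnt6 and Wnt10a are adjacent genes on chromosome 1, 1 of 4 adjacent pairs among the members, and their probes lie at chr1:74831461-74831520 and chr1:74850633-74850692 on mm9. On the same build the probes of Dkk2, Rspo1 and Sfrp5 lie at chr3:131842357-131842416, chr4:124686270-124686329 and chr19:42272509-42272568, and those of Wnt5a and Rspo3 at chr14:29336664-29336723 and chr10:29172930-29172989.

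After AOM, the array labelled Pla2g3+/+ carried far more Wnt6, Wnt10a, Wnt5a and Dkk2 RNA and far less Rspo1, Rspo3 and Sfrp5 RNA than its vehicle array. Of 35 members with a value, 8 were higher and 10 lower past 2-fold. Over all 17275 genes with a value, 15.1% were higher and 22.4% lower. The share past 2-fold in either direction was 51.4% for the members and 37.5% for all genes, a difference that was not tested. Their median log2 ratio was 0.0027, beside −0.17 over all genes. On the arrays labelled Pla2g3-/-, 10 of 32 members were higher after AOM, against a background of 9.65%, and 3 were lower, against 15.1%. With normexp background correction and quantile normalization the 10 became 2 and the 3 stayed 3, while 10.5% of all genes were past 2-fold. With the 75th percentile, the median of the members was 0.39, beside −0.08 over all genes. By that scaling 40.6% of the members were past 2-fold beside 24.8% of all genes.

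**Figure D1:**
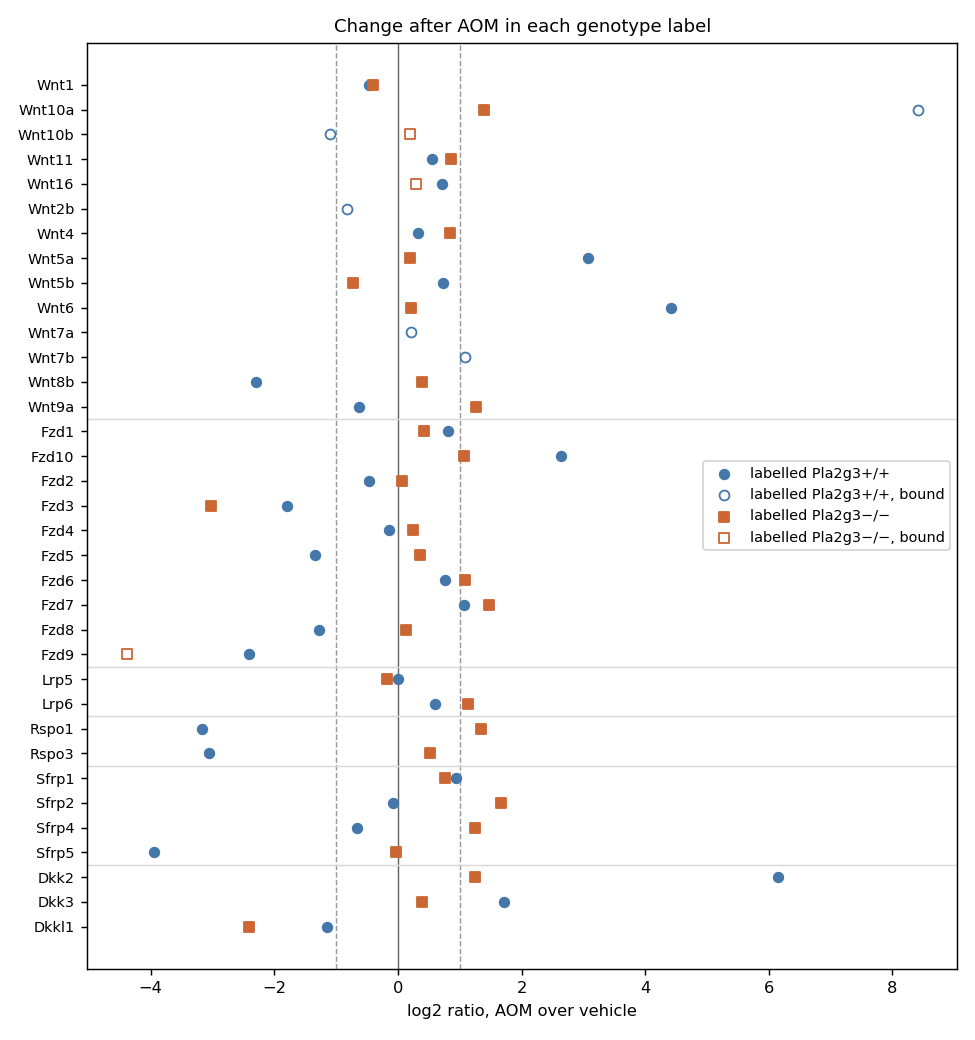
Change after AOM for each of the 35 members, as the log2 ratio of AOM over vehicle on the x axis, with circles for the arrays labelled Pla2g3+/+, squares for those labelled Pla2g3-/-, open symbols for bounds, and dashed lines at 2-fold. Wnt10a, Dkk2, Wnt6 and Wnt5a lie far to the right only as circles, Sfrp5, Rspo1 and Rspo3 far to the left only as circles, and Fzd3, Fzd9 and Dkkl1 lie left of the 2-fold line in both.

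With vehicle, Wnt10a alone among the members differed past 2-fold between the genotype labels. Of 32 members with a value, 1 was over 2-fold higher on the array labelled Pla2g3-/- and 0 were lower, against a background of 1.93% and 1.32% of 16392 genes. The median log2 ratio was 0.06 over the members and −0.02 over all genes. After AOM, 8 of 34 members were higher and 9 lower on the array labelled Pla2g3-/- than on that labelled Pla2g3+/+, against 15.1% and 12.9% of 17195 genes. The medians were 0.03 and 0.03, and 50% of the members were past 2-fold beside 28.0% of all genes.

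**Figure D2:**
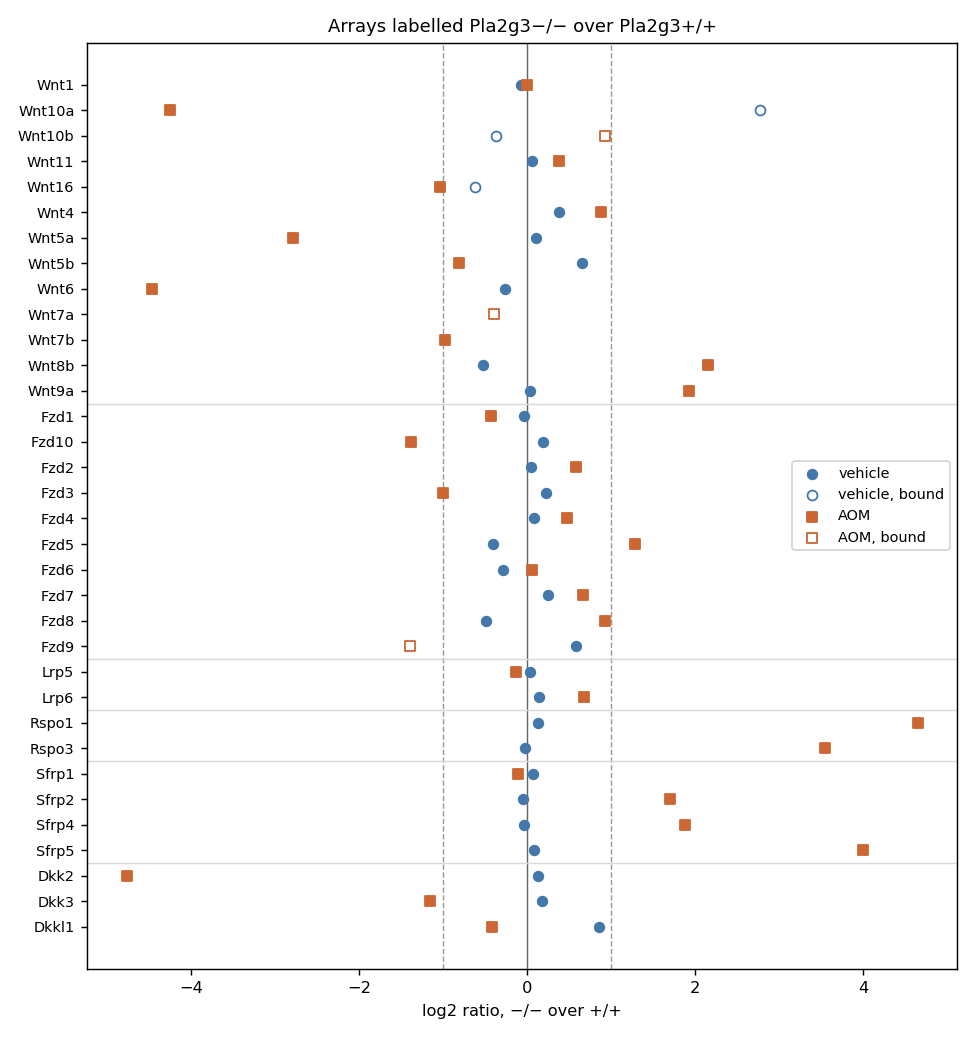
Difference between the genotype labels for the 34 members with a value, as the log2 ratio of Pla2g3-/- over Pla2g3+/+ on the x axis, with circles for the vehicle pair, squares for the AOM pair, open symbols for bounds, and dashed lines at 2-fold. Apart from Wnt10a the vehicle symbols sit between the dashed lines, while the AOM symbols run from −4.77 for Dkk2 to 4.65 for Rspo1.

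Wnt ligands. Of 19 Wnt genes, 14 were well above background on at least 1 array and 8 on all 4. Wnt10a, a ligand of skin, hair and tooth development, had signals of 0.34, 11.3, 566 and 29.8, of which the first was below background. Every array but that of Pla2g3+/+ with vehicle detected it, and the array labelled Pla2g3+/+ after AOM was the highest. It was at least 341-fold higher after AOM in Pla2g3+/+ and 2.64-fold higher in Pla2g3-/-. It was the only member past 2-fold between the vehicle arrays, at least 6.80-fold higher in Pla2g3-/-, whereas after AOM it was 19.0-fold lower there.

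Wnt6, the neighbor of Wnt10a, had signals of 7.75, 6.44, 166 and 7.49. A single array was high and the other three lay close together. It was 21.4-fold higher after AOM in Pla2g3+/+ and 1.16-fold higher in Pla2g3-/-, and after AOM the array labelled Pla2g3-/- was 22.1-fold lower. The Wnt6 promoter is the richest in CpG of the 4 printed.

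Wnt5a, a ligand that mostly signals without β-catenin and is made in the gut by stromal cells, was also high on that array alone, with signals of 27.3, 29.3, 230 and 33.5. It was 8.43-fold higher after AOM in Pla2g3+/+ and 1.14-fold higher in Pla2g3-/-, and 6.88-fold lower in Pla2g3-/- than in Pla2g3+/+ after AOM. Of 10 fibroblast markers, 6 were higher and 1 lower past 2-fold after AOM in Pla2g3+/+ (15.1% and 22.4% of all genes). In Pla2g3-/-, where Wnt5a was 1.14-fold higher, 5 of the 10 markers were higher after AOM and 0 lower (9.65% and 15.1%). After AOM, 5 of these markers were lower and 2 higher in Pla2g3-/- than Pla2g3+/+ (12.9% and 15.1% of all genes). Among them Col1a1 had signals of 107, 148, 1284 and 277 and Dpt had 87.2, 97.2, 14.0 and 53.6. Their part in the Wnt5a result was not tested. Wnt5b, its close paralog, stayed within 2-fold in every comparison, with signals of 45.4, 71.2, 75.4 and 42.9.

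In the other direction, Wnt8b had signals of 8.40, 5.83, 1.71 and 7.62. It was 4.91-fold lower after AOM in Pla2g3+/+, and after AOM it was 4.46-fold higher in Pla2g3-/-. A dimmer Wnt8b probe was below background on all 4 arrays. Wnt9a had signals of 4.75, 4.87, 3.06 and 11.7, with the array labelled Pla2g3-/- after AOM the highest, 2.39-fold above its vehicle array and 3.81-fold above Pla2g3+/+ after AOM.

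The remaining Wnt changes were close to the detection limit. Wnt7b, expressed by gut epithelium, had signals of 0.62, 1.05, 3.54 and 1.79, the vehicle arrays being below background, and was at least 2.13-fold higher after AOM in Pla2g3+/+. Wnt10b had signals of 2.94, 2.27, 1.37 and 2.61, with the middle pair below background, and was at least 2.14-fold lower after AOM in Pla2g3+/+. Wnt16 had signals of 3.55, 2.31, 5.83 and 2.83, the second below background, and was 2.06-fold lower in Pla2g3-/- after AOM. Wnt1, Wnt4, Wnt5b, Wnt11, Wnt2b and Wnt7a passed 2-fold in no comparison, and Wnt2b and Wnt7a were each detected on 1 array. For Wnt1 the probe used had signals of 39.4, 37.5, 28.4 and 28.5, whereas a dimmer probe was below background on all 4 arrays.

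**Figure D3:**
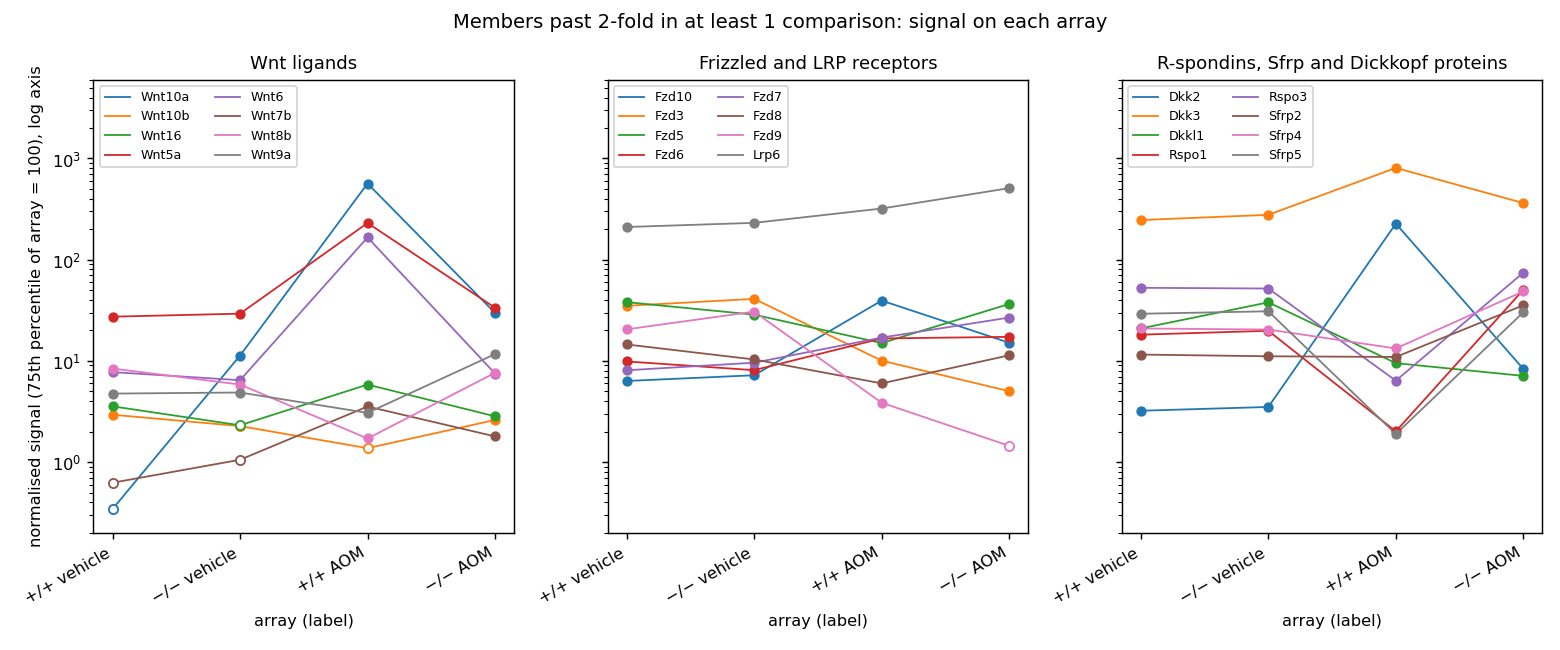
Normalised signal of the 24 members past 2-fold in at least 1 comparison, on a log y axis, for each of the 4 arrays on the x axis, in 3 panels, with lines joining the points of 1 gene and open points below background. Lines that peak at Pla2g3+/+ after AOM include Wnt10a at 566, Wnt5a at 230, Dkk2 at 227 and Wnt6 at 166, and lines that dip there include Rspo1 at 2.01, Sfrp5 at 1.89 and Rspo3 at 6.37.

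Frizzled receptors. All 10 Frizzled genes were detected, 9 of them on every array. In Pla2g3+/+ 2 were higher after AOM and 4 lower (15.1% and 22.4% of all genes), and in Pla2g3-/- 3 were higher and 2 lower (9.65% and 15.1%). Fzd10, a receptor that is scarce in most adult tissues, had signals of 6.33, 7.21, 39.4 and 15.1. It was higher after AOM under both labels, 6.23-fold in Pla2g3+/+ and 2.10-fold in Pla2g3-/-, and 2.61-fold lower in Pla2g3-/- than in Pla2g3+/+ after AOM.

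Fzd3, best known for guiding axons through planar cell polarity, was lower after AOM under both labels. Its signals were 35.0, 41.0, 10.05 and 5.01, 3.48-fold lower in Pla2g3+/+ and 8.17-fold lower in Pla2g3-/-. Between the AOM arrays it was lower in Pla2g3-/- by 2.003-fold, at the threshold. Fzd9, a receptor of the nervous system and bone, had signals of 20.5, 30.7, 3.85 and 1.45, the last below background. It was 5.32-fold lower after AOM in Pla2g3+/+ and at least 20.9-fold lower in Pla2g3-/-, and at least 2.63-fold lower in Pla2g3-/- than Pla2g3+/+ after AOM. The neuron and glia markers were lower after AOM too, 6 of 8 past 2-fold in Pla2g3+/+ and 3 of 8 in Pla2g3-/- (22.4% and 15.1% of all genes). Unlike Fzd3 and Fzd9, their summed signal was lowest in Pla2g3+/+ after AOM, and their part in these results was not tested.

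Fzd5, a receptor of gut epithelium, had signals of 38.0, 28.6, 15.0 and 36.5, and was 2.53-fold lower after AOM in Pla2g3+/+ and then 2.43-fold higher in Pla2g3-/-. A second Fzd5 probe gave 2.93-fold and 2.60-fold for the same comparisons. Fzd8 had signals of 14.5, 10.3, 5.99 and 11.3 and was 2.43-fold lower after AOM in Pla2g3+/+. For both genes the array labelled Pla2g3+/+ after AOM was the lowest.

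Fzd7, a receptor of intestinal stem cells, had signals of 8.07, 9.59, 17.0 and 26.8, higher after AOM by 2.10-fold and 2.79-fold. Its second, dimmer probe, with signals of 2.13, 2.87, 2.08 and 2.78, did not show this, with log2 ratios of −0.03 and −0.05. Fzd6 had signals of 9.87, 8.09, 16.7 and 17.3, past 2-fold (2.13-fold) in Pla2g3-/- alone, although the AOM arrays had nearly the same signal. Fzd1, Fzd2 and Fzd4 stayed within 2-fold in all 4 comparisons by their brightest probes. The dimmer Fzd2 probe, with signals of 4.80, 5.53, 2.75 and 8.67, differed from this in 1 comparison, 3.16-fold higher in Pla2g3-/- than in Pla2g3+/+ after AOM, where the brighter probe gave 1.49-fold.

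The co-receptors Lrp5 and Lrp6 were detected on every array. Lrp5 stayed within 2-fold and had signals of 71.7, 73.4, 71.8 and 65.2. Lrp6 had signals of 210, 231, 320 and 509 and was 2.20-fold higher after AOM in Pla2g3-/-, and 1.92-fold by its dimmer probe.

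R-spondins. Rspo1 and Rspo3 were detected on all 4 arrays. Rspo1 had signals of 18.2, 19.8, 2.01 and 50.4. The vehicle arrays were alike, the array labelled Pla2g3+/+ after AOM was 9.03-fold lower than its vehicle array, and that labelled Pla2g3-/- was 2.54-fold higher, which left a 25.1-fold difference between the genotype labels after AOM. Rspo3, which stromal cells under the crypt release to sustain stem cells, had signals of 52.7, 51.9, 6.37 and 74.4. It was 8.27-fold lower after AOM in Pla2g3+/+, 1.43-fold higher in Pla2g3-/-, and 11.7-fold higher in Pla2g3-/- than in Pla2g3+/+ after AOM.

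Both R-spondins were lowest on the same array as the smooth muscle genes. Of these genes, 10 of 10 were over 2-fold lower after AOM in Pla2g3+/+ (median log2 ratio −4.34), beside 22.4% of all genes. After AOM, 10 of 10 were higher in Pla2g3-/- than Pla2g3+/+ (median 4.15), beside 15.1%. After AOM in Pla2g3-/-, where Rspo1 was 2.54-fold higher, 1 of 10 was higher and 0 lower (median −0.10), beside 9.65% and 15.1%. Chrdl1, a BMP antagonist of the stroma, had signals of 20.8, 21.6, 0.64 and 49.0. It was lowest, and below background, in Pla2g3+/+ after AOM. The part of smooth muscle in the R-spondin results was not tested.

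Sfrp antagonists. All 4 genes with an Sfrp symbol were detected on every array, and Frzb (Sfrp3) is given below with the other antagonists. Sfrp5 had signals of 29.2, 30.9, 1.89 and 30.2, so that 3 arrays lay within 2-fold and that labelled Pla2g3+/+ after AOM was 15.4-fold below its vehicle array and 16.0-fold below Pla2g3-/- after AOM. It was lowest on the same array as the R-spondins and the smooth muscle genes, whose part was not tested. Sfrp2 had signals of 11.54, 11.1, 10.9 and 35.4. Here the array labelled Pla2g3-/- after AOM was the one apart, 3.19-fold above its vehicle array and 3.24-fold above Pla2g3+/+ after AOM, and the other three lay together. Sfrp4 had signals of 20.9, 20.4, 13.3 and 48.6, and was 2.38-fold higher after AOM in Pla2g3-/- and 3.66-fold higher there than in Pla2g3+/+. Sfrp1 had signals of 23.2, 24.3, 44.7 and 41.3 and passed 2-fold nowhere.

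Dickkopf antagonists. Dkk2, which blocks Lrp5 and Lrp6, had signals of 3.21, 3.50, 227 and 8.33. It was 70.6-fold higher after AOM in Pla2g3+/+ and 2.38-fold higher in Pla2g3-/-, which left it 27.2-fold lower in Pla2g3-/- after AOM. Dkk3, a family member that is not a typical Wnt inhibitor, had signals of 246, 277, 807 and 363, 3.27-fold higher after AOM in Pla2g3+/+, 1.31-fold higher in Pla2g3-/-, and 2.22-fold lower in Pla2g3-/- after AOM. Dkkl1, a Dkk3-related gene known from testis, went the other way under both labels, with signals of 20.9, 37.9, 9.49 and 7.10, lower by 2.20-fold and 5.33-fold after AOM. Of the 5 Dickkopf genes on the array, Dkk1 and Dkk4 were not detected, and the 3 detected passed 2-fold after AOM in Pla2g3+/+, 2 higher and 1 lower, beside 37.5% of all genes.

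Target genes of the pathway were higher in Pla2g3+/+ after AOM as well. Of 15 feedback and target genes, 13 were over 2-fold higher after AOM in Pla2g3+/+ (median log2 ratio 2.43) and 0 lower, whereas in Pla2g3-/- 2 were higher and 2 lower (median −0.02). The shares of all genes were 15.1% higher and 22.4% lower in Pla2g3+/+, and 9.65% and 15.1% in Pla2g3-/-. With vehicle 0 of 15 differed between the genotype labels, and after AOM 12 were lower in Pla2g3-/- (median −2.21), beside 12.9% of all genes. Axin2, a negative feedback component that is the usual readout of β-catenin signaling, had signals of 13.3, 16.0, 159 and 20.4. Sp5, a transcription factor switched on by Wnt signals, had 4.02, 4.17, 392 and 1.01, the last below background, and Nkd1, an inhibitor of Dishevelled, had 80.5, 91.6, 1223 and 60.3. Lgr5, the R-spondin receptor of crypt base stem cells, had 13.4, 17.8, 119 and 6.28. For all of these the array labelled Pla2g3+/+ after AOM was by far the highest.

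Of 10 other secreted or membrane-bound antagonists and modulators, which the symbol rule did not take, 7 were detected. Of these, 5 were higher and 1 lower after AOM in Pla2g3+/+ (15.1% and 22.4% of all genes). Among the higher ones, Frzb, an Sfrp family protein also called Sfrp3, had signals of 7.33, 7.55, 16.5 and 4.60. After AOM it was 3.58-fold lower in Pla2g3-/- than in Pla2g3+/+, opposite to Sfrp2, Sfrp4 and Sfrp5. The lists overlap, and Notum, Lgr5, Rnf43, Znrf3, Axin2 and Nkd1 are each counted among the target genes and in another list. Wif1, which binds Wnts directly, had signals of 25.2, 16.2, 1953 and 6.18, with log2 ratios of 6.28 after AOM in Pla2g3+/+ and −1.40 in Pla2g3-/-. Notum, the enzyme that strips the lipid from Wnts, had 213, 194, 1031 and 170, and Apcdd1, a membrane-bound inhibitor, had 1.76, 2.64, 116 and 2.44, the vehicle arrays being below background. Sostdc1 was the exception, with signals of 14.1, 7.84, 0.29 and 8.66, below background in Pla2g3+/+ after AOM. In Pla2g3-/- 0 of 6 of these antagonists were higher after AOM and 1 lower (9.65% and 15.1% of all genes).

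Among 18 other receptors and regulators of receptor turnover, 7 of 17 were higher and 2 lower after AOM in Pla2g3+/+ (15.1% and 22.4% of all genes). In Pla2g3-/- 4 of 17 were higher and 3 lower (9.65% and 15.1%). Rnf43, the ubiquitin ligase that R-spondins oppose, had signals of 174, 176, 1369 and 317, and its partner Znrf3 had 6.34, 7.48, 34.2 and 7.37. Thus the R-spondins and the ligases they act on differed in opposite directions in Pla2g3+/+ after AOM. Gpc3, a proteoglycan that binds Wnts, had 23.4, 24.5, 1.66 and 27.0, and was lowest on the same array as Sfrp5. Kremen2, a Dickkopf receptor, had 56.8, 13.5, 9.26 and 14.0, the highest in Pla2g3+/+ with vehicle.

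Genes for making and relaying the signal were counted in the same way, beside 15.1% of all genes higher and 22.4% lower after AOM in Pla2g3+/+. Of 5 genes for acylation and secretion of Wnts, 0 were higher and 1 lower after AOM in Pla2g3+/+, and Wls, the carrier of Wnts to the surface, had signals of 229, 250, 312 and 332. Porcn, the enzyme that attaches the lipid, had 35.4, 38.1, 34.4 and 77.3. Of 19 cytoplasmic components 5 were higher and 1 lower in Pla2g3+/+, and the gene of β-catenin itself (Ctnnb1) stayed within 2-fold, with 819, 736, 1229 and 958. Of 12 nuclear factors detected 2 were higher and 1 lower, and these were Lef1, with 10.3, 9.77, 243 and 13.3, and Tcf7, with 4.93, 4.39, 55.4 and 6.06, against Tcf7l1, with 71.0, 56.8, 21.9 and 109.6. In Pla2g3-/- compared with Pla2g3+/+ after AOM, 3 of 12 nuclear factors were higher and 3 lower, and of 19 cytoplasmic components 0 were higher and 3 lower. The shares of all genes in that comparison were 15.1% higher and 12.9% lower.

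Among 13 factors of the crypt stroma, 4 were higher and 3 lower after AOM in Pla2g3+/+ (15.1% and 22.4% of all genes). In Pla2g3-/- 2 were higher and 0 lower (9.65% and 15.1%). Foxl1, which marks the stromal cells that supply Wnts to the crypt, had signals of 7.45, 11.2, 43.0 and 7.31. Bmp5 had 11.502, 11.3, 43.1 and 12.3. Both were highest on the same array as Wnt5a, whereas Chrdl1 was lowest there, as Rspo1 was.

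**Figure D4:**
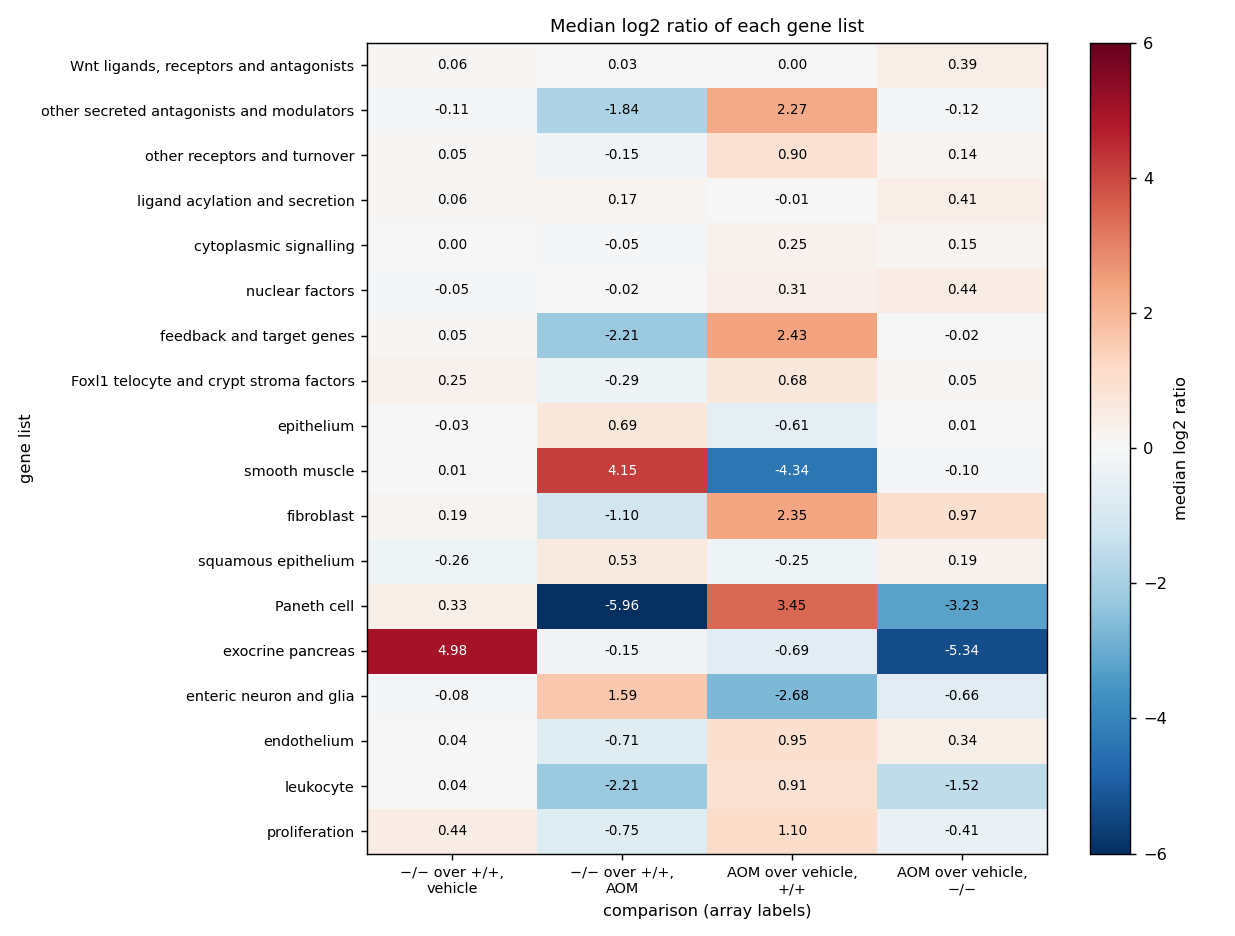
Median log2 ratio of each gene list (rows) in the 4 comparisons (columns), printed in each cell and shown on a blue to red scale from −6 to 6. The members as a whole stay between 0.00 and 0.39, while the feedback and target genes (2.43) and the smooth muscle genes (−4.34) move far apart in Pla2g3+/+ after AOM.

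Across all 4 arrays, limma fitted treatment and genotype as additive effects with 1 residual degree of freedom. After Benjamini-Hochberg adjustment, 0 of 17876 genes (0%) passed 0.05 for treatment and 0 (0%) for genotype, with lowest adjusted p-values of 0.368 and 0.994. At an unadjusted p under 0.05 there were 2409 genes for treatment and 215 for genotype, and these held 4 members (Dkkl1, Fzd3, Fzd7 and Fzd9) and 0 members. The fit describes changes that are alike under both labels, and gives no estimate for a difference past 2-fold under 1 label only, as in Wnt6, Rspo3 and Sfrp5.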

How the data were processed

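Total RNA of colon pools, 27.7 ng per array, was labelled with Cy3 and hybridized to 4 Whole Mouse Genome arrays on 1 slide. The deposited spot intensity comes from Agilent Feature Extraction 11.5.1.1, where the authors subtracted background and removed trends across the array without scaling arrays to each other. A second deposited table holds a ratio, this intensity over the 75th percentile of its array, used here as an alternative.

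Groups were taken from the sample labels. Each array had 43020 spots besides the control spots, which were left out. Outlier spots were then left out, and replicate spots were averaged on the log2 scale. The 75th percentile of the 43020 spots, outliers included, was subtracted. This percentile was an intensity of 646 and 650 with vehicle and 1309 and 1169 after AOM (Pla2g3+/+ and Pla2g3-/-), and 64.8% to 69.4% of spots were well above background. The number of arrays limits the precision. Of 39429 probes, 31372 were named through a RefSeq table of GRCm38.p6, the build of the promoters, whereas probe coordinates are given on mm9 as in the array files.

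The members and lists were chosen with earlier results of these data known. Every member past 2-fold in a comparison was named, and pathway genes past 4-fold could be. Ctnnb1, Wls, Porcn, Tcf7l1, Bmp5, Frzb and the single markers were named after their values were seen. Marker lists covered epithelium, smooth muscle, fibroblast, squamous epithelium, Paneth cell, exocrine pancreas, neuron and glia, endothelium, leukocyte and proliferation. limma 3.58.1 in R 4.3.3 was tested on simulated data, and Python 3.11.15, pandas 2.3.3, numpy 2.4.6 and matplotlib 3.10.9 made tables and figures. Alternatives were quantile normalization, scaling by the median, normexp (offset of 50) with quantile normalization, detection on both arrays required, all probes kept however dim, averaging the probes of a gene, and the deposited ratio.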

Additional observations from a re-analysis of the deposited data

Results flagged for a closer look

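In 2 members a comparison passed 2-fold in opposite directions under the other condition, and in neither was the difference tested. Wnt10a was higher in Pla2g3-/- than in Pla2g3+/+ with vehicle (log2 ratio of at least 2.77) and lower after AOM (−4.25). The vehicle value rests on a signal of 11.3 against a probe below background, on the array where exocrine pancreas genes were high (summed signal of 985 beside 37.7 in Pla2g3+/+ with vehicle), whose part was not tested. Rspo1 was lower after AOM in Pla2g3+/+ (log2 ratio −3.17) and higher in Pla2g3-/- (1.35). In Pla2g3+/+ the same pair of arrays differed in 10 of 10 smooth muscle genes, and in Pla2g3-/- 1 of 10 was past 2-fold, higher.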

How the results depend on the processing

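No paired analysis was possible because each group has 1 array, and for the same reason no array could be left out. Of 49 calls of a member past 2-fold, 27 stayed past it in the same direction under every alternative that gave a value and 44 did when normexp was left aside, and no single value changed sign past 2-fold. Those kept include all 5 Sfrp and R-spondin genes higher in Pla2g3-/- after AOM and Wnt5a, Wnt6, Wnt10a, Dkk2 and Dkk3 in Pla2g3+/+ after AOM. With normexp and quantile normalization, 5 members were higher and 5 lower in Pla2g3-/- than Pla2g3+/+ after AOM, 5 were lower after AOM in Pla2g3+/+, and 2 were higher after AOM in Pla2g3-/-, where Rspo1, Dkk2 and Wnt10a were among those no longer called. Under it the share of calls that were higher went from 44.4% to 54.5% in Pla2g3+/+ and from 76.9% to 40% in Pla2g3-/-. The share of all genes past 2-fold fell with normexp too, from 28.0% to 16.3% between the AOM arrays. After AOM that share went from 37.5% to 19.9% in Pla2g3+/+ and from 24.8% to 10.5% in Pla2g3-/-. Between the vehicle arrays, 0 members were higher when both arrays had to be well above background, which leaves Wnt10a without a value, and 1 was lower with no filter on dim probes. The median log2 ratio of all genes after AOM was −0.17 in Pla2g3+/+ and −0.08 in Pla2g3-/- by the 75th percentile and −0.0027 and 0.03 by quantile normalization. The calls of Wnt16 and Fzd3 between the AOM arrays, of Wnt10b after AOM in Pla2g3+/+ and of Fzd7 after AOM were lost under at least 1 alternative other than normexp. The limma fit called 0 genes with an intensity trend, with quantile normalization and on genes well above background on all 4 arrays. Signals near background limit Wnt7b, Wnt10b and Wnt16. They also limit the size of folds that use Rspo1 (2.01), Sfrp5 (1.89) and Wnt8b (1.71) in Pla2g3+/+ after AOM, where the floor was 1.26. Dkk2 was dim with vehicle (3.21 and 3.50). Its log2 ratio after AOM in Pla2g3+/+ went from 6.14 to 4.17 with normexp and quantile normalization.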

Other observations

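Other markers varied over the arrays as follows. Mmp7, a protease of Paneth cells and of intestinal tumors, had normalised signals of 48.7, 57.6, 1735 and 1.18 in the order used above, and Defa23, a Paneth cell defensin, had 3.12, 4.19, 3864 and 9.75. Ang4 had 13131, 10663, 460 and 46.8. All 4 Paneth cell genes on the array were lower in Pla2g3-/- than in Pla2g3+/+ after AOM (median log2 ratio −5.96), beside 12.9% of all genes. The summed signal of 5 leukocyte genes was 1498, 1567, 2226 and 401. That of 5 endothelial genes was 556, 576, 424 and 322, of which Kdr gave 513, 529, 291 and 264. By count, 2 of these 5 were higher and 0 lower after AOM in Pla2g3+/+ (median log2 ratio 0.95), beside 15.1% and 22.4% of all genes. In Pla2g3-/- 1 was higher and 1 lower (median 0.34). The sum of 8 proliferation genes was 1707, 1921, 2868 and 1994, of which Mki67 gave 289, 433, 791 and 863. Their median log2 ratio after AOM in Pla2g3-/- was −0.41. The sum of 10 squamous epithelium genes was 686, 619, 703 and 2456, of which Krt5 alone gave 5.61, 5.15, 2.66 and 1527. Of 8 with a value, 3 were higher and 1 lower after AOM in Pla2g3-/- (median log2 ratio 0.19), beside 9.65% and 15.1% of all genes. In Pla2g3+/+ 1 was higher and 3 lower (median −0.25), beside 15.1% and 22.4%.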
